A study of Mus musculus with 24 samples.

Results

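De novo lipogenesis, the making of fatty acids from acetyl-CoA, was examined through 10 genes in adipose tissue RNA of 24 mice. The genes were taken by symbol from the count table and were Srebf1, Mlxipl, Acly, Me1, Acaca, Fasn, Elovl6, Scd1, Dgat2 and Thrsp, or 10 of the 54232 genes in the table. The C57BL6 mice were 10 weeks old by the description of the series and formed 4 groups of 6, with 1 library per mouse. Sham-operated mice given GFP were the Control group, and sham-operated mice given NaKtide were the NaKtide group. Mice with partial nephrectomy, in which 1 kidney was removed and part of the other was ligated, were the PNx group when given GFP and the PNx+NaKtide group when given NaKtide. All 4 groups received a lentivirus into the peritoneum whose transgene was driven by the adiponectin promoter, which is active in adipocytes. NaKtide is a peptide made from the Na,K-ATPase that is meant to block signaling of this pump through the kinase Src, and partial nephrectomy serves as a model of renal failure. Nothing in the labels says that libraries of different groups with the same number shared a litter or a day.

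In the pathway, citrate exported from mitochondria is cleaved to acetyl-CoA by ATP citrate lyase (Acly), acetyl-CoA carboxylase (Acaca) makes malonyl-CoA from it, and fatty acid synthase (Fasn) builds palmitate with NADPH that malic enzyme (Me1) helps to supply. Elovl6 then lengthens palmitate, Scd1 adds a double bond, and Dgat2 performs the last step of triglyceride assembly. Srebf1 and Mlxipl encode SREBP-1 and ChREBP, the transcription factors through which insulin and glucose raise the expression of these enzymes, and Thrsp encodes Spot 14, a small protein that follows thyroid hormone and carbohydrate intake. White fat and liver are the tissues in which this pathway is best known.

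The libraries were shallow, with total counts from 679250 to 2979505, and a count of 3, taken as the limit that a count of 0 allows, corresponded to 0.739 to 5.91 CPM (read counts scaled to library size with TMM factors, the unit used for libraries below). Such limits and the intervals below cover counting error only. Genes whose exons overlap an antisense gene made up 16.8% of the annotated genes and held 79.9% of all counts, with 70.2% to 86.5% in single libraries. The mitochondrial minus-strand mRNA mt-Nd6 had 67.6 times the counts per kb of the 12 plus-strand mitochondrial mRNAs (21.0 to 194 times in single libraries). The library kit marks strand, and the strand setting used in counting was not given in the sources used here, so a gene's count can hold reads of the opposite strand. Counting on the strand opposite to the transcripts would leave such a pattern, and this was not tested on reads. In that case the counts of a gene without an antisense neighbor would be residual reads, so every level below is a level of the deposited counts and may not be that of the mRNA. Acly, Acaca, Fasn, Scd1, Dgat2 and Thrsp had no annotated exon on the opposite strand. Srebf1 shared 109 bases with Rai1, Mlxipl 235 bases with Gm43500, Me1 30 bases with A330041J22Rik and Elovl6 34 bases with Gm35986. Counts of these 4 members cannot be told from those of their partners over the shared bases.

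Several libraries stood apart, and they bear on every result below. The summed level of 20 adipocyte markers reached 8668 CPM in PNx replicate 6. NaKtide replicate 6 followed at 6149 CPM, and all others had at most 1417 CPM, the value of PNx+NaKtide replicate 1. The lowest sum was 133.9 CPM, none of the 20 markers was at 0 over all libraries, and the most counted ones were Fabp4, the fatty acid carrier of fat cells, and Plin4, a lipid droplet protein. The sum of 15 epididymis markers was 157 CPM and 34.9 CPM in those same libraries, against 966 to 2692 CPM in Control. All 20 adipocyte markers were above the median of the 19 libraries described below in both. PNx replicates 1, 2 and 3 had adipocyte sums of 309, 281.5 and 289 CPM, but these hide markers that went opposite ways. Adipoq, Lipe, Pnpla2 and Slc2a4 were above that median in all 3, Adipoq with 95.1, 140.9 and 88.6 CPM against 27.6 CPM. Of these, Lipe shared 918 exon bases with annotated exons of the opposite strand, and the others shared none. By contrast, 14 of the 20 markers were below that median in all 3, and Lep and Retn had no count in PNx replicate 2. The same 3 libraries had epididymis sums of 30.6, 303 and 744 CPM, below every Control library, and testis germ cell sums of 980, 978 and 1125 CPM, the highest of all 24 libraries. In NaKtide replicate 6 the sum of 12 skeletal muscle markers was 5940 CPM, where the next highest library had 114.6 CPM. The sum of 10 liver markers, a tissue that also makes fat, stood at 515 CPM in the first of these libraries and 344 CPM in the second, and at no more than 73.6 CPM elsewhere. Cyp2e1 (406 and 191 CPM) and Serpina1a (55.1 and 126 CPM) made up most of it, and the defining liver transcript Alb had at most 13.96 CPM in any library. The sum of 6 endothelium markers was 402 and 68.5 CPM in these libraries, against at most 24.1 CPM elsewhere, and that of 6 fibroblast progenitor markers was 416 and 245 CPM, against at most 85.4 CPM. The part of these differences in the results was not tested, and in bulk tissue fewer cells of a type cannot be told from less RNA per cell.

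RefSeq promoters of GRCm38.p6, from 250 bases before to 50 after a transcription start, were available for 8 of the 10 genes, with 12 starts in all. They were searched on both strands for letters bound by regulators of lipogenesis. The sterol regulatory element TCACNCCAC, read by SREBP, was in 1.24% of all 32851 promoters and in 1 member promoter, at a start inside Mlxipl. The E-box CACGTG was in 7.15% of all promoters and also in 1 member promoter, at the first start of Mlxipl. The NF-Y box CCAAT was in 37.4% of all promoters and in 7 of the 12 member promoters. These belong to Srebf1, Mlxipl, Acly, Me1, Fasn and Thrsp, and that of Me1 lies at a start inside the gene. The Sp1 box GGGCGG was in 35.7% of all promoters and in 5 of the 12, which belong to Srebf1, Mlxipl, Acly and Me1. Those of Srebf1 lie at starts inside the gene. A match is a description and no evidence of binding. The promoters of Fasn and Thrsp are shown because these genes rose and fell together across libraries. That of Elovl6 is shown because this gene departed from them in PNx replicate 6 and NaKtide replicate 6, on 9 and 4 counts. Those of Mlxipl are shown because they hold the rarer matches. Of Srebf1, the other transcription factor gene, 1 promoter is shown, at a start inside the gene, which holds only NF-Y and Sp1 letters. Capitals mark matched letters on either strand, and each promoter is printed in the direction of its gene.
Fasn, chr11:120824498-120824797, minus strand: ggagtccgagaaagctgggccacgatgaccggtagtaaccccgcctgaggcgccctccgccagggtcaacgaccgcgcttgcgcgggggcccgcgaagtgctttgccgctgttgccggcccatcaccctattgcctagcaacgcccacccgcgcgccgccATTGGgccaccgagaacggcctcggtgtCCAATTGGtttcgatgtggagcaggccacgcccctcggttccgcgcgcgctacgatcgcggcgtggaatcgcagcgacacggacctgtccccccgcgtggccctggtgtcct
Thrsp, chr7:97417501-97417800, minus strand: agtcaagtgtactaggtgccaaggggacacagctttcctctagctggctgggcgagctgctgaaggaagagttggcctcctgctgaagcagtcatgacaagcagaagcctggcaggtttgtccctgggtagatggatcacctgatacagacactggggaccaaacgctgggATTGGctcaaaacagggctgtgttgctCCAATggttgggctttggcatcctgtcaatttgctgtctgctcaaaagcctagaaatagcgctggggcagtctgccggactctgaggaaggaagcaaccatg
Elovl6, chr3:129532136-129532435, plus strand: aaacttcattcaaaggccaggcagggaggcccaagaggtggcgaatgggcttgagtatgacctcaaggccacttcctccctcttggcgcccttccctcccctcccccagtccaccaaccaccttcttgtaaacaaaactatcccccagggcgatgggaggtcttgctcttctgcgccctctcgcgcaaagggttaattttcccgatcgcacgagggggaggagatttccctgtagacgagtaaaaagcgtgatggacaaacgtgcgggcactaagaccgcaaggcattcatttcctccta
Mlxipl, chr5:135089640-135089939, plus strand: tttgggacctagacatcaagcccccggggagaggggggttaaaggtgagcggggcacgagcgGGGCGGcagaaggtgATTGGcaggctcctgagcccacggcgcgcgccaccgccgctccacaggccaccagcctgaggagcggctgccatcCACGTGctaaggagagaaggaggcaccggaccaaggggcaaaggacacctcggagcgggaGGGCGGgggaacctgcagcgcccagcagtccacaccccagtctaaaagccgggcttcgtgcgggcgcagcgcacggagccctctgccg
Mlxipl, chr5:135106641-135106940, plus strand: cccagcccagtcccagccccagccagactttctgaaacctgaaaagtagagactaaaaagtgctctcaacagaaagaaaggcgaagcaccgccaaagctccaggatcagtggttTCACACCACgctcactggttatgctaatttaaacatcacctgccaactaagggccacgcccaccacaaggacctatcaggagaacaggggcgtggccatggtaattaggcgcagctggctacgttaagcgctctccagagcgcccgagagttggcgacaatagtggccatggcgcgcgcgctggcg
Srebf1, chr11:60210422-60210721, minus strand: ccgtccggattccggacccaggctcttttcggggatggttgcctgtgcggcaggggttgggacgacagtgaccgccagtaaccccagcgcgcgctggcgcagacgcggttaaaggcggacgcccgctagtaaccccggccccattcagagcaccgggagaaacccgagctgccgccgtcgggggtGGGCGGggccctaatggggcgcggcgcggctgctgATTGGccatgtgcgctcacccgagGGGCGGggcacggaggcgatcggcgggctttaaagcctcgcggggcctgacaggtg
Fasn held 3 NF-Y boxes, of which a pair overlaps, and Thrsp held 2. The Elovl6 window held none of the 4 sets of letters. Neither did the only Acaca window, which lies at a start inside the gene and is not printed. The promoter at the first start of Acaca was not searched.

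All 10 genes had counts in every library and passed the filter on low counts. The sums over libraries ranged from 457 counts for Me1 to 4843 for Scd1. There were 12 cases in which a gene had 3 or fewer counts in a library, and 7 of them were of Me1. Levels of different genes were compared as FPKM, the deposited values per kb of transcript. In Control the order by median FPKM was Acly (9.74), Scd1 (9.38), Dgat2 (5.32), Thrsp (4.51), Fasn (3.93), Srebf1 (3.51), Mlxipl (2.12), Elovl6 (1.85), Me1 (0.655) and Acaca (0.641). Neighbours in this order overlapped in their ranges over the 6 mice, except Srebf1 (lowest 3.19) and Mlxipl (highest 2.90).

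**Figure D1:**
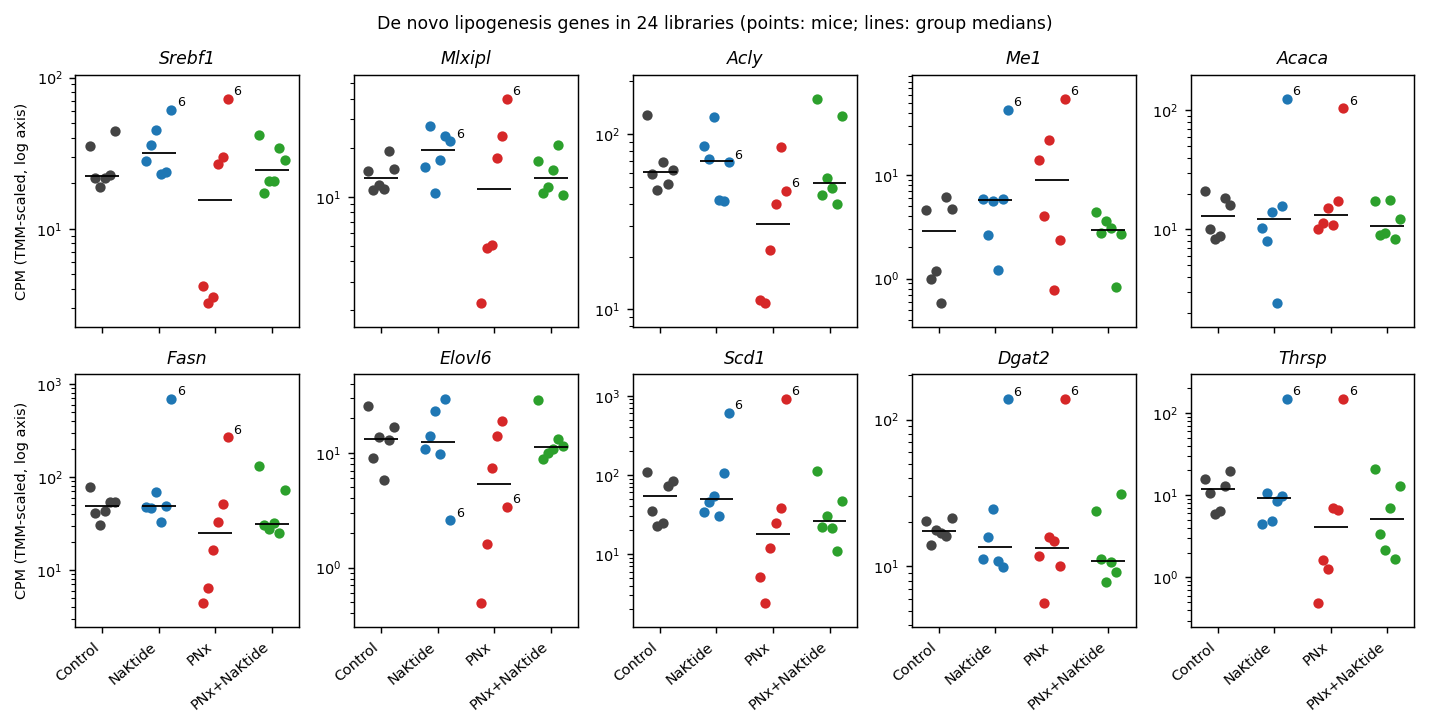
Each panel plots 1 gene. Points are the 24 mice by group on a log axis of CPM, lines are group medians, and 6 marks replicate 6 of NaKtide and of PNx. Scd1 reached 913 and 604.5 CPM in the replicate 6 libraries of PNx and NaKtide. Elovl6 was at 3.40 and 2.59 CPM in the same libraries, on 9 and 4 counts.

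The transcription factor genes spread more widely within PNx than within the other groups. Srebf1 (ENSMUSG00000020538, chr11:60199089-60222581, minus strand, GRCm38) ran from 18.9 to 44.2 CPM in Control (median 22.2) and from 23.0 to 61.4 CPM in NaKtide (median 31.9). In PNx it ran from 3.23 to 72.1 CPM (median 15.4), and in PNx+NaKtide from 17.3 to 41.5 CPM (median 24.6). PNx replicates 1, 2 and 3 had 4.19, 3.23 and 3.53 CPM, below every other library, whereas PNx replicates 4 and 5 lay within the Control range. Rai1, its opposite-strand neighbour, was also low there, with 4.93, 22.2 and 14.4 CPM against a median of 128 CPM over all libraries. Mlxipl (ENSMUSG00000005373, chr5:135089890-135138382, plus strand) showed the same spread. Its range was 11.01 to 19.1 CPM in Control (median 13.1), 10.5 to 27.2 CPM in NaKtide (median 19.5), 2.22 to 40 CPM in PNx (median 11.2) and 10.2 to 20.8 CPM in PNx+NaKtide (median 13.0). PNx replicates 1, 2 and 3 had 2.22, 4.85 and 5.05 CPM, again below all other libraries.

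The genes that supply precursors and NADPH went separate ways. Acly (ENSMUSG00000020917, chr11:100476353-100528000, minus strand) ran from 47.9 to 128 CPM in Control (median 61.2), from 41.3 to 125 CPM in NaKtide (median 70.7), from 10.9 to 84.9 CPM in PNx (median 30.9) and from 39.9 to 158.9 CPM in PNx+NaKtide (median 52.8). In PNx, 5 of 6 libraries lay below the lowest Control library. PNx replicate 6 was among them only narrowly, with 47.55 against 47.93 CPM. NaKtide replicates 4 and 5 (42.4 and 41.3 CPM) and PNx+NaKtide replicates 2 and 5 (45.1 and 39.9 CPM) were also below that Control library. Me1 (ENSMUSG00000032418, chr9:86581371-86695953, minus strand) ran from 0.584 to 6.17 CPM in Control (median 2.91), from 1.21 to 42.7 CPM in NaKtide (median 5.72), from 0.785 to 54.4 CPM in PNx (median 9.04) and from 0.832 to 4.43 CPM in PNx+NaKtide (median 2.93). PNx replicates 1, 3 and 6 and NaKtide replicate 6 had 14.0, 21.9, 54.4 and 42.7 CPM, and each of the other 20 libraries had at most 6.17 CPM. The lowest Control value rested on 1 count, with an exact Poisson 95% interval of 0.0148 to 3.25 CPM. The antisense gene A330041J22Rik, which shares 30 exon bases with Me1, had 88.9, 95.3 and 58.0 CPM in PNx replicates 1, 2 and 3, 50.2 CPM in replicate 6 of PNx and 365 CPM in replicate 6 of NaKtide. Its median over all libraries was 22.2 CPM. Its part in the Me1 counts was not tested.

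The genes of fatty acid synthesis itself were highest in the same pair of libraries. Acaca (ENSMUSG00000020532, chr11:84129672-84401651, plus strand) had 124 CPM in NaKtide replicate 6, followed by PNx replicate 6 with 104 CPM, and each of the other 22 libraries had at most 20.9 CPM. Its medians were 13.0, 12.2, 13.2 and 10.7 CPM in Control, NaKtide, PNx and PNx+NaKtide. In PNx replicates 1, 2 and 3 it stood at 10.1, 11.3 and 15.1 CPM, within the Control range of 8.29 to 20.9 CPM. In FPKM, PNx replicate 3 (1.29) lay above the highest Control library (1.04). Fasn (ENSMUSG00000025153, chr11:120805846-120824547, minus strand) ran from 30.2 to 77.1 CPM in Control (median 48.7), from 32.7 to 691 CPM in NaKtide (median 48.3), from 4.43 to 268 CPM in PNx (median 24.7) and from 24.9 to 131 CPM in PNx+NaKtide (median 31.2). Unlike Acaca, Fasn was lowest in PNx replicates 1, 2 and 3, with 4.43, 6.46 and 16.4 CPM, and its highest values were those of NaKtide replicate 6 and PNx replicate 6.

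Scd1 and Elovl6, whose products act on palmitate one after the other, were apart in these libraries. Scd1 (ENSMUSG00000037071, chr19:44394455-44407879, minus strand) ran from 22.5 to 110.0 CPM in Control (median 54.0), from 30.3 to 604.5 CPM in NaKtide (median 49.4), from 2.42 to 913 CPM in PNx (median 18.1) and from 10.8 to 110.7 CPM in PNx+NaKtide (median 25.9). Of its 4843 counts over all libraries, 2419 came from the library with most. Elovl6 (ENSMUSG00000041220, chr3:129532355-129638495, plus strand) ran from 5.83 to 25.5 CPM in Control (median 13.3), from 2.59 to 29.5 CPM in NaKtide (median 12.4), from 0.493 to 19.01 CPM in PNx (median 5.36) and from 8.92 to 28.8 CPM in PNx+NaKtide (median 11.1). NaKtide replicate 6 and PNx replicate 6, the libraries highest or second highest in Scd1, stood at ranks 22 and 21 of 24 for Elovl6. These ranks rest on 4 and 9 counts. PNx replicate 1 had 2 counts of Elovl6, with an exact Poisson 95% interval of 0.0597 to 1.78 CPM.

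Dgat2 (ENSMUSG00000030747, chr7:99153658-99182719, minus strand) was highest in PNx replicate 6, at 138.5 CPM, closely followed by NaKtide replicate 6, at 137.7 CPM, and stood between 5.65 and 31.2 CPM in all others. Its medians were 17.3, 13.6, 13.4 and 10.9 CPM in Control, NaKtide, PNx and PNx+NaKtide. Control mice were close together, with a mean of 17.8 ± 2.76 CPM (SD, n = 6). In FPKM, PNx replicates 1 and 3 (6.155 and 7.49) lay above the highest Control library (5.81). Thrsp (ENSMUSG00000035686, chr7:97412938-97417730, minus strand) ran from 5.92 to 19.4 CPM in Control (median 11.7), from 4.50 to 148 CPM in NaKtide (median 9.16), from 0.493 to 148 CPM in PNx (median 4.07) and from 1.66 to 21.0 CPM in PNx+NaKtide (median 5.13). PNx replicates 1, 2 and 3 had 0.493, 1.61 and 1.26 CPM, the 3 lowest CPM values of all libraries. The first of these rested on 2 counts. In FPKM, PNx replicates 2 and 3 (1.09 and 0.838) lay above PNx+NaKtide replicate 5 (0.795).

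Against the 19 libraries other than PNx replicates 1, 2, 3 and 6 and NaKtide replicate 6, these libraries departed in a gene-specific way. In PNx replicate 6, 8 of the 10 genes lay above all 19 libraries and 1, Elovl6, below all of them, and Acly lay within. Of 19440 genes with a mean of at least 1 CPM, 26.5% lay above all 19 there and 14.2% below. In NaKtide replicate 6, 7 of the 10 lay above and Elovl6 again below, where 15.9% and 14.9% of all genes did. Elovl6 rested on 9 and 4 counts in PNx and NaKtide replicate 6, beside 10 in Control replicate 4, the lowest of the 19. The part of counting error in its place was not tested. PNx replicates 1, 2 and 3 had 7, 8 and 5 of the 10 genes below all 19 libraries, against 24.8%, 21.9% and 21.1% of all genes. Me1 was the exception, above all 19 libraries in PNx replicates 1 and 3. Acaca lay within the range of the 19 in all 3, and Dgat2 in 2 of them. These places hold for CPM. In FPKM, Acaca in PNx replicate 3 (1.29) lay above all 19 (highest 1.04). Dgat2 in PNx replicate 2 (2.71) was not below all 19 (lowest 2.34), nor was Thrsp in PNx replicates 2 and 3. These libraries were set apart with their expression known, so the counts are descriptions.

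**Figure D2:**
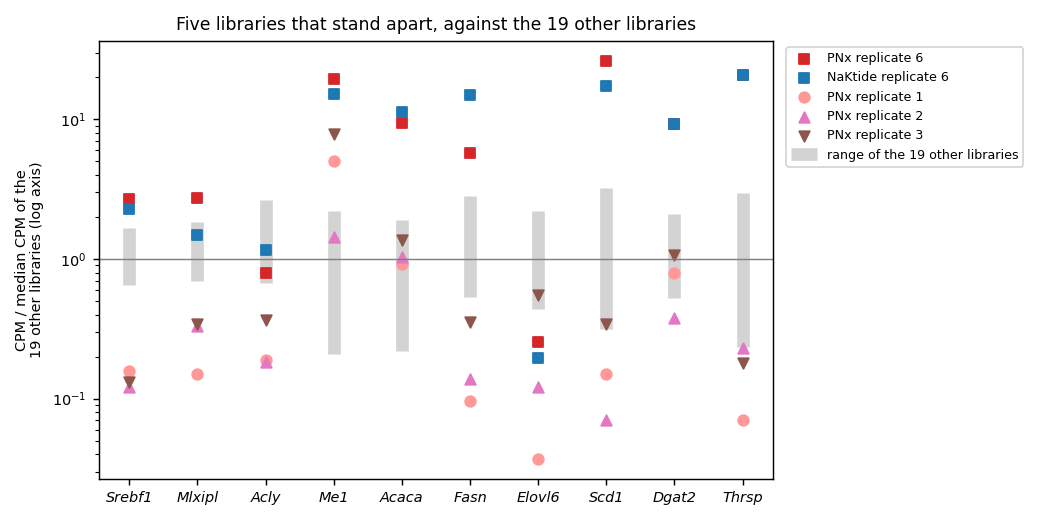
For each gene, points give the CPM of 5 libraries divided by the median CPM of the 19 other libraries, on a log axis, and grey bars give the range of those 19. In PNx replicate 6 and NaKtide replicate 6 the ratio was 26.4 and 17.5 for Scd1 and 0.255 and 0.194 for Elovl6. For Thrsp and Dgat2 the points of these 2 libraries nearly coincide. The points of PNx replicate 1 for Elovl6 and Thrsp rest on 2 counts each. Those of Elovl6 in PNx replicate 6 and NaKtide replicate 6 rest on 9 and 4 counts.

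The effect of nephrectomy was addressed by PNx against Control. With edgeR's quasi-likelihood test on all 24 libraries, 0 of the 10 genes passed a BH-adjusted p-value of 0.1, which 0.0766% of the 26116 genes tested did. At an unadjusted p-value under 0.05 there was 1 gene, Me1, where 25.4% of all genes passed. Me1 differed by a log2 fold change of 2.41 ± 0.82 (SE), with an adjusted p-value of 0.135 and 4 of 6 PNx libraries above the Control mean. Acly differed by -0.96 ± 0.47 with an adjusted p-value of 0.198 and 1 of 6 PNx libraries above the Control mean. The difference of Scd1 was 1.51 ± 1.07 (adjusted p-value 0.349) although only 1 of 6 PNx libraries lay above the Control mean, and the same held for Thrsp (1.21 ± 1.07) and Dgat2 (0.89 ± 0.69). Elovl6 had a difference of -0.91 ± 0.61 and Acaca of 1.03 ± 0.68. Fasn, Mlxipl and Srebf1 had differences of 0.34 ± 0.83, 0.17 ± 0.48 and -0.24 ± 0.56. Of the 10 genes, 7 had a positive difference and 3 a negative one, with a median of 0.61 beside 0.36 over all genes.

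The direction of most of these differences rested on PNx replicate 6. Without it, Scd1 went from 1.51 to -1.85, Thrsp from 1.21 to -1.92, Fasn from 0.34 to -1.18, Dgat2 from 0.89 to -0.60, Mlxipl from 0.17 to -0.41 and Acaca from 1.03 to -0.09. The median of the 10 genes went from 0.61 to -0.91, and 0 of them passed, where 14.8% of all genes did. The difference of Acly (-1.06), Elovl6 (-0.76), Srebf1 (-1.06) and Me1 (1.54) kept its sign. With NaKtide replicate 6 left out as well, 3 of the 10 genes passed, where 21.8% of all genes did. These were Me1, with a log2 fold change of 1.55, and Scd1 and Thrsp, with -1.86 and -1.93. Without PNx replicates 1, 2 and 3 instead, Srebf1 turned to 0.56, and the median of the 10 genes was 1.29. Of the 10 genes 0 passed, as did 0% of all genes.

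Other tools and scalings gave other calls. Over all genes the median difference was 0.36 with TMM, 0.76 with DESeq2's size factors, 0.70 with library size and -0.05 in limma voom. DESeq2 called 1 of the 10 genes, Me1 (log2 fold change 2.85, adjusted p-value 0.0146), where it called 29.7% of all genes. Me1 was also the gene called by edgeR with DESeq2's size factors (33.3% of all genes), with scaling by library size (15.7%), with the filterByExpr filter (17.9%) and without PNx replicate 4 (33.2%). Without PNx replicate 5, Me1 and Acly were called, where 23.2% of all genes were. Limma voom, which gives each library a weight, called 8 of the 10 genes, with Me1 higher and Srebf1, Mlxipl, Acly, Fasn, Elovl6, Scd1 and Thrsp lower, and called 63.8% of all genes. In that fit Srebf1 had -2.42 and Thrsp -2.72.

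**Figure D3:**
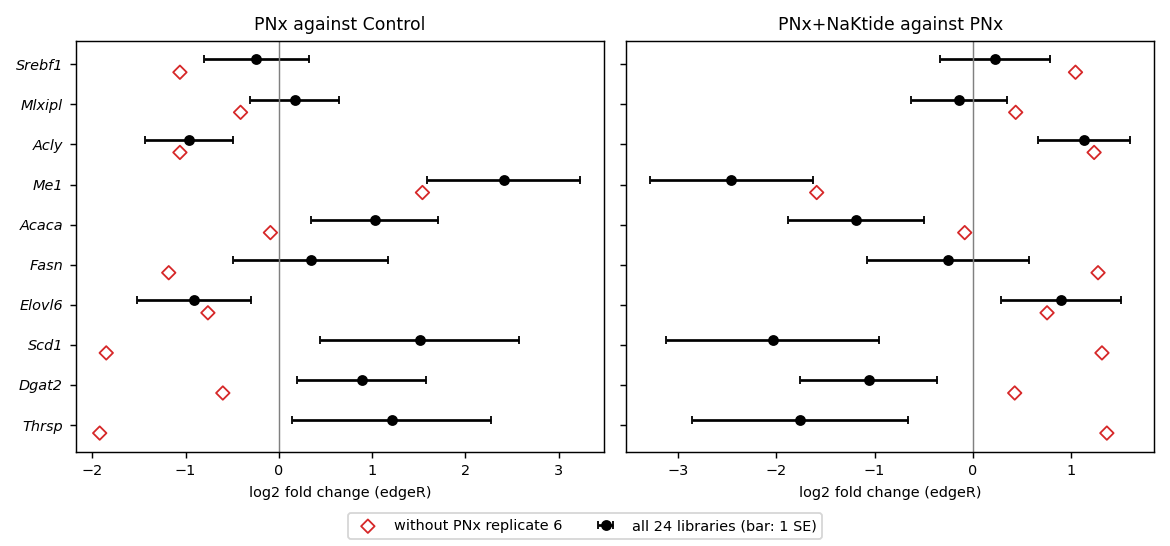
Log2 fold changes from edgeR for PNx against Control (left) and PNx+NaKtide against PNx (right). Black points with bars are estimates from all 24 libraries with 1 SE, and open red diamonds are estimates without PNx replicate 6. Scd1 moved from 1.51 to -1.85 on the left and from -2.04 to 1.32 on the right.

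The effect of NaKtide after nephrectomy was addressed by PNx+NaKtide against PNx, which shares the PNx libraries with the comparison above, so opposite signs are in part built in. Of the 10 genes 0 passed, as did 0% of all genes (lowest adjusted p-value of any gene 0.35). At an unadjusted p-value under 0.05 there were 2, Me1 and Acly, where 12.7% of all genes passed. Me1 had -2.46 ± 0.83 (adjusted p-value 0.357), with 0 of 6 PNx+NaKtide libraries above the PNx mean. Acly had 1.14 ± 0.47 (adjusted p-value 0.358), with 6 of 6 above it. Elovl6 had 0.90 ± 0.61, also with 6 of 6 above the PNx mean. Scd1 had -2.04 ± 1.09, Thrsp -1.76 ± 1.10, Acaca -1.19 ± 0.69, Dgat2 -1.06 ± 0.70, Fasn -0.25 ± 0.83, Mlxipl -0.14 ± 0.49 and Srebf1 0.23 ± 0.56. The median was -0.66 beside -0.37 over all genes, and it became 0.90 without PNx replicate 6, when Scd1 stood at 1.32, Thrsp at 1.37, Fasn at 1.28, Dgat2 at 0.43 and Mlxipl at 0.44. DESeq2 called 1 gene, Me1 (-2.79, adjusted p-value 0.0596), where 5.8% of all genes were called. Limma voom called 8, with Me1 lower and the other 7 higher, where 44% of all genes were called.

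In sham mice NaKtide was compared with Control. Again 0 of the 10 genes passed, as did 0% of all genes, and at an unadjusted p-value under 0.05 there was 1, Me1 (1.83 ± 0.82), where 3.95% of all genes passed. All 10 differences were positive, from 0.06 for Acly and Elovl6 to 1.83 for Me1, and their median was 1.04 beside 0.00 over all genes. Without NaKtide replicate 6 the median was 0.02. For PNx+NaKtide against NaKtide, 0 genes passed (0% of all genes), and 1, Me1 (-1.87 ± 0.83), had an unadjusted p-value under 0.05, where 4.09% of all genes did. The median of -1.21 became -0.05 without NaKtide replicate 6.

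Whether nephrectomy differed in effect between the transductions was tested as an interaction. Of the 10 genes 0 passed (0% of all genes), and 4 had an unadjusted p-value under 0.05, Me1, Acaca, Scd1 and Dgat2, where 9.27% of all genes did. Me1 had -4.29 ± 1.17 (adjusted p-value 0.423), Scd1 -3.36 ± 1.52, Acaca -2.29 ± 0.97 and Dgat2 -2.06 ± 0.99. Both PNx replicate 6 and NaKtide replicate 6 enter this difference with the same sign, and without both the median of the 10 genes went from -1.97 to 0.79. DESeq2 called 1 gene, with a negative difference (0.36% of all genes). Limma voom called 4, of which 3 had a positive difference and 1 a negative one (25.5% of all genes).

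The adipocyte marker sum and the level of each gene were related across libraries, with 10 relations in the family. PNx replicate 6 and NaKtide replicate 6 form a cluster of their own and were left out, leaving 22 libraries. Permutations moved libraries freely across the 4 groups, so the p-values take no account of the groups. The marker sum and the gene levels were divided by the same TMM-scaled library sizes, and permutation does not keep this shared scaling. Its part in the correlations was not tested. On log2 scales Thrsp had a Pearson r of 0.816 (permutation p = 1e-05, adjusted p = 0.0001) and a Spearman rho of 0.872 (permutation p = 1e-05, adjusted p = 5e-05), and a p of 1e-05 is the smallest that 100000 random permutations can give. For Scd1 r was 0.803 (permutation p = 2e-05, adjusted p = 0.0001) and rho 0.895 (permutation p = 1e-05, adjusted p = 5e-05). For Fasn r was 0.633 (permutation p = 0.00136, adjusted p = 0.00453) and rho 0.787 (permutation p = 4e-05, adjusted p = 0.000133). For Elovl6 r was 0.514 (permutation p = 0.0142, adjusted p = 0.0334) and rho 0.582 (permutation p = 0.00512, adjusted p = 0.0102). For Acly r was 0.504 (permutation p = 0.0167, adjusted p = 0.0334) and rho 0.600 (permutation p = 0.00362, adjusted p = 0.00905). Me1 had an r of 0.155 (permutation p = 0.486, adjusted p = 0.486) and a rho of 0.134 (permutation p = 0.547, adjusted p = 0.547).

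The libraries farthest from the median marker sum were PNx+NaKtide replicates 1 and 5. Without them r was 0.781 for Thrsp, 0.793 for Scd1, 0.596 for Fasn, 0.580 for Elovl6, 0.435 for Acly and -0.0161 for Me1. Within groups, after group means were removed, r was 0.796 for Thrsp, 0.786 for Scd1, 0.581 for Fasn, 0.434 for Elovl6 and 0.424 for Acly. It was 0.458 for Acaca, 0.376 for Dgat2, 0.301 for Me1, 0.299 for Srebf1 and 0.283 for Mlxipl. Without PNx replicates 1, 2 and 3, r rose to 0.910 for Scd1, 0.863 for Thrsp, 0.731 for Fasn and 0.542 for Me1 over 19 libraries, while it fell to 0.427 for Acly, 0.329 for Srebf1, 0.250 for Mlxipl and 0.429 for Dgat2. Srebf1 had r = 0.430 (permutation p = 0.047, adjusted p = 0.0672) and rho = 0.547 (permutation p = 0.00944, adjusted p = 0.0157). Dgat2 had r = 0.459 (permutation p = 0.0323, adjusted p = 0.0539) and rho = 0.446 (permutation p = 0.04, adjusted p = 0.0572). Mlxipl had r = 0.396 (permutation p = 0.0682, adjusted p = 0.0853) and rho = 0.387 (permutation p = 0.0768, adjusted p = 0.0854). Acaca had r = 0.341 (permutation p = 0.119, adjusted p = 0.133) and rho = 0.385 (permutation p = 0.0767, adjusted p = 0.0854).

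**Figure D4:**
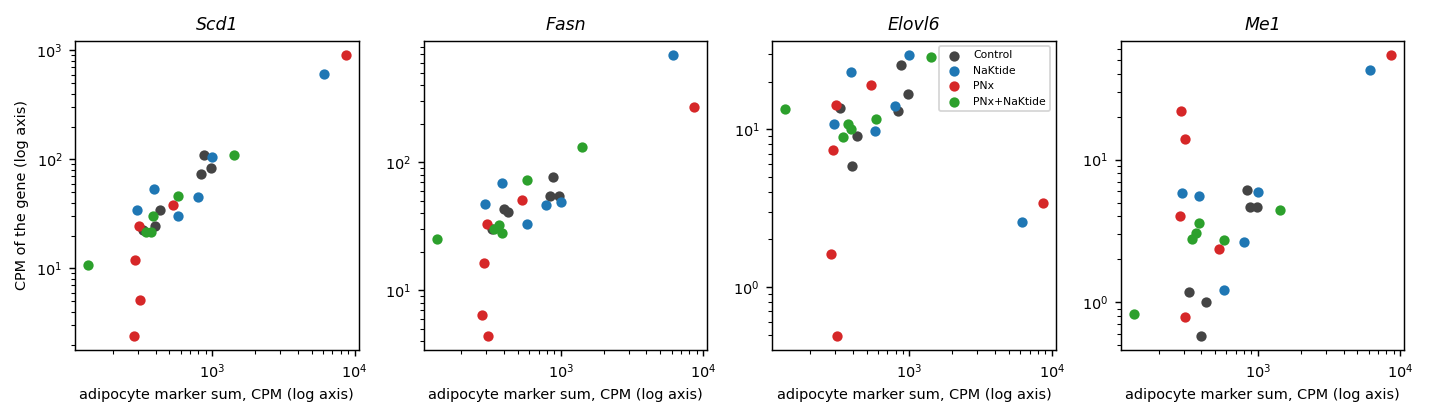
Each point is a library, with the summed CPM of 20 adipocyte markers on the x axis and the CPM of the gene on the y axis, both logarithmic, colored by group. The 2 libraries at the right have 8668 and 6149 CPM of markers. They are among the highest for Scd1, Fasn and Me1. For Elovl6 they are among the lowest, on 9 and 4 counts.

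Among the 10 genes themselves, Pearson correlations of log2 CPM over all 24 libraries described the same grouping. Fasn and Scd1 had 0.940, Scd1 and Thrsp 0.933, and Acaca was closest to Dgat2 (0.812). Elovl6 had a median correlation of 0.232 with the other 9 genes and was lowest with Me1 (-0.427). Without PNx replicate 6 and NaKtide replicate 6, the median for Elovl6 was 0.782, with its highest value to Fasn (0.883), whereas the median for Me1 was -0.247. These values share libraries and depth and carry no test.

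The genes whose levels were most like the mean standardized level of the 10, out of 19430 others, were Slc1a5 (r = 0.975 over 24 libraries), a glutamine transporter, Mgll (0.967), the lipase that acts on monoglycerides, Gsn (0.966), Echs1 (0.952), Pmepa1 (0.951), Tkt (0.950), an enzyme of the pentose phosphate pathway, Ctsb (0.945), Neat1 (0.942), Retn (0.940), which encodes the adipokine resistin, and Lpl (0.938), lipoprotein lipase. Retn and Lpl are also among the 20 adipocyte markers. Mgll, Echs1 and Ctsb shared 167, 142 and 774 exon bases with annotated exons of the opposite strand. Slc1a5, Mgll, Gsn and Neat1 were also among the closest 10 over the 22 libraries without PNx replicate 6 and NaKtide replicate 6.

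A wider list of 61 lipogenesis genes, of which 59 passed the filter, was described beside the 10. In PNx against Control 0 of the 59 passed, 18 had an unadjusted p-value under 0.05 (12 higher, 6 lower), or 30.5% where 25.4% of all genes did, and the median log2 fold change was 0.56. The 16 genes of acyl-CoA activation and triglyceride assembly had a median of 1.03, with 14 positive, and Acsl1, which activates fatty acids, had 1.44 ± 0.49 (adjusted p-value 0.136) and shared 1039 exon bases with an antisense gene. Agpat3, which acylates lysophosphatidic acid, had 0.10 ± 0.38 (adjusted p-value 0.874), and -0.01 ± 0.38 in PNx+NaKtide against PNx. The 13 tested genes of malonyl-CoA synthesis, elongation and desaturation had a median of -0.51, and among its desaturases Fads1 had means of 139.5 CPM in Control and 69.9 CPM in PNx (adjusted p-value 0.185) and Fads3 had -0.62 ± 0.34. In the group that supplies precursors and NADPH, with a median of 0.69 over 12 genes, Acss2, which makes acetyl-CoA from acetate, had -0.66 ± 0.30 and Mdh1, a malate dehydrogenase, 0.92 ± 0.42. Among 18 regulators the median was 0.07. Mid1ip1, a relative of Thrsp, had -1.09 ± 0.58, and Cebpa, a transcription factor of fat cells, 0.84 ± 1.02. Exon bases shared with the opposite strand were also annotated for Acss2 (927), Mid1ip1 (543), Mdh1 (52), Cebpa (51) and Agpat3 (16). Fads1 and Fads3 shared none. In PNx+NaKtide against PNx 0 of the 59 passed, 9 had an unadjusted p-value under 0.05, or 15.3% where 12.7% of all genes did, and the median was -0.43. All 16 genes of acyl-CoA activation and triglyceride assembly had a negative difference there, with a median of -1.23. Both comparisons share the PNx libraries, so opposite signs are in part built in. In PNx replicate 6, 35 of the 59 genes lay above all of the 19 libraries described above, and 3 lay below them. Of all genes with a mean of at least 1 CPM, 26.5% lay above and 14.2% below. The part of that library in these medians was not tested.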

How the data were processed

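RNA from adipose tissue was sequenced in 24 mice, 4 groups of 6, grouped by the sample labels. Per the submitters' processing notes and the study's methods, the authors trimmed paired reads of 50 bp with Trimmomatic 0.38, aligned them to GRCm38 with HISAT2 2.1.0 and counted reads per gene. The authors deposited raw counts per gene, used for the tests, and FPKM, used to compare levels between genes and as an alternative unit. Their normalized values were not used.

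Genes with more than 10 counts over the 24 libraries were kept (26116 of 54232). Log2 fold changes came from edgeR 4.0.16 in R 4.3.3 (TMM, robust quasi-likelihood F-test, 1 fit of 4 group means), with Benjamini-Hochberg adjustment over all genes tested and a threshold of 0.1. The SE of an edgeR log2 fold change was its absolute value divided by the square root of the F statistic. CPM used TMM-scaled library sizes, and log2 CPM a prior count of 2. In the edgeR fit of 4 group means, each p-value sets a difference between groups against the spread between mice within groups, estimated over all 4 groups. The p-values of correlations came from permutations. The biological coefficient of variation was 71.4%, and total counts were 679250 to 2979505. Gene symbols and exons came from GENCODE M21 (GRCm38). Alternatives were DESeq2 1.42.0, limma 3.58.1 voom with sample weights, limma on log2(FPKM + 1) and log2(FPKM + 0.1), DESeq2 size factors, library size scaling, other filters, the compared groups only, a replicate block, and libraries left out. With a pseudocount added to FPKM, changes of low genes come out too small. The tests were tested on simulated data. These had equal numbers of raised and lowered genes and no libraries made to stand apart within a group. That run therefore cannot tell which of the differing calls above are right.

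The 10 genes, the wider list, the marker lists and the libraries left out together were chosen with earlier results of these data known. The text names the 10 genes, their overlapping partners, the 10 genes most alike, and the 2 most counted genes of each role of the wider list, with no set test. Adipoq, Lipe, Pnpla2, Slc2a4, Lep, Retn and Alb were named after their values were seen.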

Additional observations from a re-analysis of the deposited data

Results flagged for a closer look

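In each group of 6, the gap between the highest or lowest library and its nearest neighbor on the log2 CPM scale was divided by the range of the group, and a value above 0.625 was singled out (Dixon's test). Over the 10 genes and 4 groups, 40 groups were examined and 8 stood out. Chance gives about 1 in 20 for independent groups. The 40 share the same 24 libraries and hold correlated genes, so 8 of 40 cannot be set against that rate. The high library was PNx replicate 6 for Acaca (0.78), Dgat2 (0.695) and Thrsp (0.639) within PNx. It was NaKtide replicate 6 for Fasn (0.761), Dgat2 (0.666) and Thrsp (0.775) within NaKtide. Elovl6 in PNx+NaKtide had a high value in replicate 1 (0.667), the library with the highest adipocyte marker sum of that group. Me1 in PNx+NaKtide had a low value in replicate 5 (0.647), which rested on 1 count.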

How the results depend on the processing

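The count of called genes among the 10 in PNx against Control was 0, and it was 1 with DESeq2, with DESeq2 size factors, with the filterByExpr filter and with library size scaling, 8 with limma voom, and 3 without PNx replicate 6 and NaKtide replicate 6. Leaving out 1 library gave 0 to 2, with 1 without PNx replicate 4 and 2 without PNx replicate 5. In PNx+NaKtide against PNx it was 1 with DESeq2 and 8 with voom, and in the interaction 1 and 4. In the wider list the count of 0 in PNx against Control became 21 with DESeq2 (29.7% of all genes), 21 with DESeq2 size factors (33.3%), 11 with filterByExpr (17.9%), 11 with library size scaling (15.7%), 38 with voom (63.8%) and 9 without both replicates 6 (21.8%). Leaving out 1 library gave 0 to 21 there, where 21, 14 and 4 were called when PNx replicate 4, 5 or 6 was omitted (33.2%, 23.2% and 14.8% of all genes), and 1 when Control replicate 5 or 6 or NaKtide replicate 6 was (0.496%, 0.646% and 0.408%). In PNx+NaKtide against PNx the wider list had 7 with DESeq2 (5.8% of all genes) and 27 with voom (44%). These counts are to be read against the shares of all genes. The cause of these differences was not tested.

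Signs turned in PNx against Control as follows. With voom the values were -0.52 for Dgat2, -2.01 for Fasn, -1.40 for Mlxipl, -2.43 for Scd1 and -2.72 for Thrsp. On log2(FPKM + 0.1) they were -0.50 for Fasn, -0.01 for Mlxipl, -0.65 for Scd1 and -0.80 for Thrsp, and on log2(FPKM + 1) -0.26, -0.41 and -0.39 for Fasn, Scd1 and Thrsp. Without both replicates 6 they were -0.09 for Acaca, -0.61 for Dgat2, -1.19 for Fasn, -0.41 for Mlxipl, -1.86 for Scd1 and -1.93 for Thrsp. Leaving out 1 library gave -0.09 to 1.21 for Acaca, -0.60 to 1.11 for Dgat2, -1.18 to 0.59 for Fasn, -0.41 to 0.40 for Mlxipl, -1.85 to 1.79 for Scd1 and -1.92 to 1.47 for Thrsp. Srebf1 was 0.04 with library size scaling and 0.56 without PNx replicates 1, 2 and 3.

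In PNx+NaKtide against PNx, voom gave 0.03 for Dgat2, 1.72 for Fasn, 1.38 for Mlxipl, 1.75 for Scd1 and 1.72 for Thrsp. On log2(FPKM + 0.1) the values were 0.46 for Fasn, 0.12 for Mlxipl and 0.09 for Scd1, and on log2(FPKM + 1) 0.25 for Fasn and 0.02 for Mlxipl. Without both replicates 6 they were 0.43 for Dgat2, 1.28 for Fasn, 0.44 for Mlxipl, 1.32 for Scd1 and 1.39 for Thrsp. Leaving out 1 library gave -1.38 to 0.43 for Dgat2, -0.75 to 1.28 for Fasn, -0.37 to 0.44 for Mlxipl, -2.67 to 1.32 for Scd1, -2.33 to 1.37 for Thrsp and 0.00 to 1.05 for Srebf1. Srebf1 was -0.01 with library size scaling and -0.57 without PNx replicates 1, 2 and 3.

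Deviations of same-numbered libraries from their group means correlated between -0.616 and 0.759. Differently numbered libraries were not compared in this way, so these values cannot tell whether replicate numbers mark pairs. With the replicate block 0 of the 10 genes and 0 of the wider list were called. Of all genes, 0.00383% were called with it in PNx against Control and 0% in PNx+NaKtide against PNx. Under the block the values in PNx against Control were -0.67 for Fasn, -0.57 for Scd1, -0.82 for Thrsp, -0.10 for Dgat2 and -0.13 for Mlxipl, and in PNx+NaKtide against PNx 0.58, 0.14 and 0.05 for Fasn, Scd1 and Thrsp and 0.18 for Mlxipl. Depth limits Me1 most, with 3 or fewer counts in 7 libraries.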
